A study of Arabidopsis thaliana with 434 samples.

Results

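The anac072 line of Arabidopsis thaliana carries a T-DNA insertion named after ANAC072 (AT4G27410), the gene for the transcription factor RD26. Its samples were chosen by genotype and letter in their titles, which gave 8 of the 434 samples of the series, A1 and A2 at each of the leaf ages 14, 18, 22 and 26 d. They were set against the wild-type samples of the same letter and age, which were 4 at 14 d and 2 at each later age, 10 in all. All 34 wild-type samples served as a check. The wild type is the Columbia ecotype, which is also the parent of every insertion line, and both groups were untreated leaves of plants grown in long days. The labels name the 3 public insertion collections behind the lines as SALK, SAIL and GABI-KAT but do not say which of them, or which allele, this line came from. The submitters call the lines knockouts. What the letter and the number in a title stand for is not given, nor whether A1 and A2 were separate plants. The p-values of the fits below rest on the scatter between samples of a group, pooled over all lines, and that scatter may be technical. NanoString nCounter counts, which count labelled probe molecules bound to RNA without amplification, covered 49 NAC genes and, as references, the actin genes ACT2 and ACT7, the tubulin gene TUB2 and the ubiquitin gene UBQ10.

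NAC proteins are a large family of plant transcription factors that share a DNA-binding domain, and the transcripts of many of them accumulate as leaves age. RD26 was named for its response to desiccation. It acts in responses to drought, salt and abscisic acid, and together with its close relatives ANAC019 and ANAC055 it is known from studies of jasmonate responses, chlorophyll breakdown and leaf senescence. Several other genes on the panel encode regulators that promote senescence (ANAC092, also called ORE1, and ANAC029, also called NAP) or delay it (ANAC042, also called JUB1, and ANAC083, also called VNI2). The comparison asks whether the transcripts of the other NAC genes differ in leaves of a line with a disrupted RD26 gene, and whether this depends on leaf age.

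Total counts ran from 58461 to 528068 in the anac072 samples and from 187841 to 640466 in the wild type of letter A. The shallowest was anac072 A1 at 22 d. Values are given as normalised counts, the raw count divided by the mean count of the 4 reference genes of that sample and put back on a common scale. UBQ10 made up 76.08 to 82.4% of the reference counts in anac072 and 78.3 to 81.3% in wild type, so UBQ10 largely sets the scale. Testing required a mean raw count over all samples above 12.6, which is the mean of the negative control probes plus 2 SD. This left 46 genes besides ANAC072, and ANAC076 and ANAC086 were not tested. Within groups, 13 pairs of samples were compared, and every pair differed by more than sampling noise.

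The targeted transcript was reduced at every age but not lost. At 14 d, ANAC072 stood at 296 and 304 normalised counts in the 2 anac072 samples and at 1103, 1270, 1213 and 843 in the 4 wild-type samples. At 18 d, the values were 687 and 414 in anac072 and 1762 and 2020 in wild type. At 22 d, they were 516 and 687 against 2087 and 4143, and at 26 d 573 and 619 against 2537 and 3693. The groups did not overlap at any age, and at each age both anac072 samples lay below every one of the 106 to 108 other samples of that age, whatever their genotype. The lowest value in any other sample was 646 at 14 d, 1241 at 18 d, 1096 at 22 d and 1598 at 26 d.

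**Figure D1:**
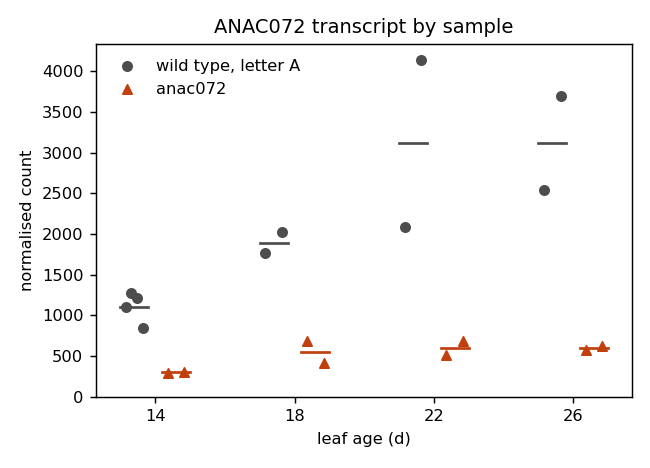
Normalised counts of ANAC072 (vertical axis, linear from 0) by leaf age in days (horizontal axis). Circles are the wild-type samples of letter A, triangles the anac072 samples and short lines the group means. The 8 anac072 samples lie between 296 and 687 normalised counts, and the 10 wild-type samples lie between 843 and 4143.

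ANAC072 was lower at all 4 ages by the quasi-likelihood test of edgeR, with p-values adjusted after Benjamini and Hochberg over the targeted genes of the lines. The log2 difference from wild type was -1.88 (SE 0.28, adjusted p = 2.2e-08) at 14 d and -1.78 (SE 0.33, adjusted p = 9.2e-07) at 18 d. It was -2.37 (SE 0.33, adjusted p = 3.4e-10) at 22 d and -2.39 (SE 0.33, adjusted p = 2.0e-10) at 26 d. As the mean of the 4 ages it was -2.10 (SE 0.16, adjusted p = 4.3e-27 over the targeted genes), which places the transcript at 23.3% of wild type (95% interval 18.7 to 28.9%). An exact two-sided permutation test that exchanged labels within age gave p = 0.000309, the smallest that its 3240 arrangements can give. Among the 47 lines whose target could be tested, ANAC072 in anac072 had the 12th lowest mean log2 difference.

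The residual transcript was well above background. The anac072 samples held 122 to 846 raw ANAC072 counts, and the negative control probes averaged 5.19. Its level was higher at 26 d than at 14 d, as in wild type. Both anac072 samples at 26 d lay above both at 14 d, and both wild-type samples at 26 d above all 4 at 14 d. In anac072 the values at 18 and 26 d overlapped, while both wild-type samples at 26 d lay above both at 18 d. These orders were not tested. The log2 difference between the lines at 26 d minus that at 14 d was -0.50 (SE 0.43, 95% interval -1.36 to 0.35). An edgeR F test that the 4 differences are equal gave p = 0.405, and an adjusted p of 0.595. Neither the position of the insertion nor that of the probe is known from the labels, so the counts do not show whether the residual RNA can encode RD26. In whole leaves, fewer cells that express a gene and less RNA per cell cannot be told apart.

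Among the other 46 NAC genes, 0 passed the test as the mean of the 4 ages. Over all lines of the series, 0.975% of the 2256 pairs of line and other gene were called in the same comparison. The lowest adjusted p in anac072 was 0.73, and 1 gene, ANAC016, had an unadjusted p below 0.05. DESeq2 and limma, fitted as alternatives, also called 0 of the genes. The same held at each age alone: edgeR called 0 genes at 14, 18, 22 and 26 d, where the share called over all lines was 1.51, 0.177, 0.0887 and 0.222%. Unadjusted p-values below 0.05 numbered 0 at 14 d, 3 at 18 d, 3 at 22 d and 0 at 26 d.

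A p that misses the threshold does not show that these transcripts were equal, so the intervals set what was measured. For the mean of the 4 ages, the 95% interval of the log2 difference lay within -1 and 1 for 41 of the 46 genes. Each such interval, unadjusted for the number of genes, leaves out a difference of more than 2-fold in that mean of the counts. Background was not subtracted from these counts. For genes near background it does not leave out such a difference in transcript. An example is ANAC057, with 1 to 12 raw counts at 18, 22 and 26 d and an interval of -0.62 to 0.49. Differences of opposite sign at single ages can cancel in it, as for ANAC102 with 0.81 at 18 d and -0.65 at 22 d. The median half-width of the interval was 0.38 on the log2 scale, or 1.31-fold. At single ages the intervals were wider. Those within -1 and 1 numbered 30 at 14 d, with 4 wild-type samples, and 15, 15 and 21 at 18, 22 and 26 d, with 2.

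**Figure D2:**
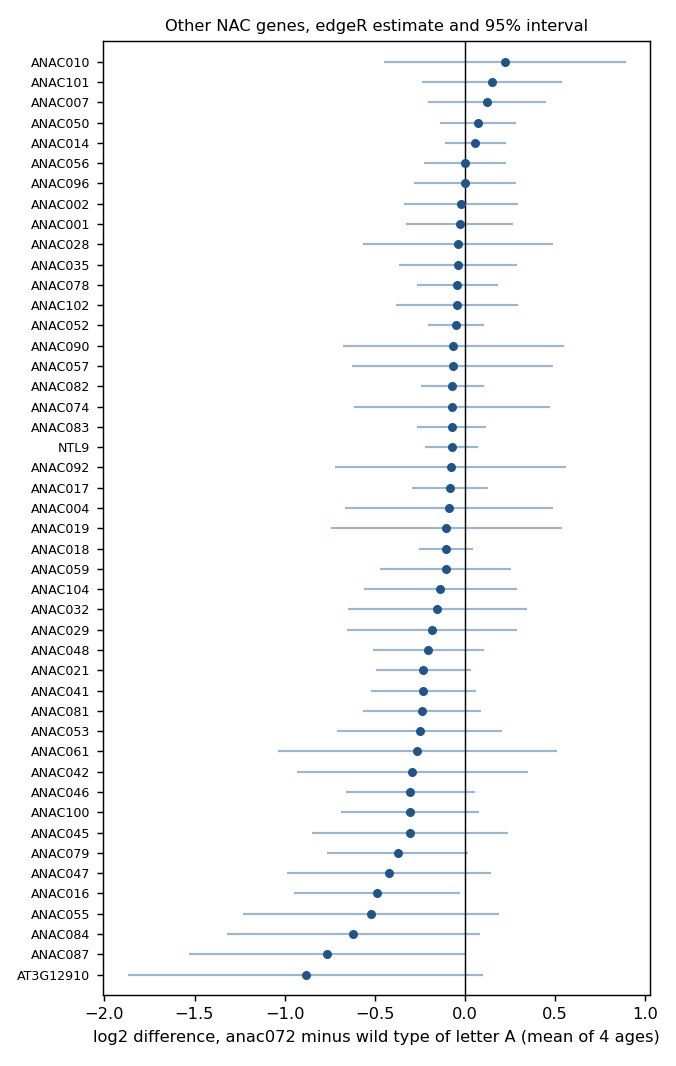
Log2 difference of each of the 46 other NAC genes between anac072 and the wild type of letter A, as the mean of the 4 ages (horizontal axis), with genes ordered by that difference (vertical axis). Points are edgeR estimates and bars 95% intervals computed from their SE, apart from the F test that gives the p-values. The estimates run from -0.88 for AT3G12910 to 0.22 for ANAC010. The intervals of ANAC016 and ANAC087 lie below 0. That of ANAC087 ends at -0.0007, while its unadjusted p by the edgeR F test was 0.051.

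Estimates lay below 0 more often than above. As the mean of the 4 ages, 39 of the 46 genes had a log2 difference below 0 and 7 above, with a median of -0.10. This lean depended on the scaling. With TMM, which takes the scale from the panel itself, 22 genes lay below 0 and 24 above, and the median was 0.0091. With DESeq2's own size factors, taken from the tested NAC genes, the numbers were 19 and 27, with a median of 0.032. A scale from the panel moves its median toward 0 by design, so neither fit can show whether the whole panel was lower. Leaving UBQ10 out of the references gave 41 below and 5 above, with a median of -0.13. The geometric mean of the 4 references also gave 41 below and 5 above, with a median of -0.12. The mean log2 level of the 46 genes was 0.15 lower in anac072, with an exact two-sided permutation p of 0.19 within age.

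By age, the lean was at 22 and 26 d. The median log2 difference was 0.0015 at 14 d, with 23 genes above 0 and 23 below, and 0.13 at 18 d, with 28 above and 18 below. It was -0.40 at 22 d, with 7 above and 39 below, and -0.24 at 26 d, with 6 above and 40 below. TMM moved the medians to -0.13 at 22 d and -0.029 at 26 d, and DESeq2 to -0.06 and 0.03. Set against all wild type of the age, the median at 22 d was -0.08 and that at 26 d -0.25. The mean log2 level of the 46 genes at 22 d was 7.87 and 8.29 in the anac072 samples and 8.21 and 8.79 in the wild-type samples, so the groups overlapped. At 26 d it was 8.18 and 8.33 in anac072 and 8.42 and 8.57 in wild type, so both mutant samples lay below both wild-type samples. The UBQ10 share at 26 d was 82.1 and 82.4% in anac072 and 80.6 and 80.7% in wild type, and without UBQ10 among the references the median at 26 d was -0.12, with 15 genes above 0 and 31 below.

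**Figure D3:**
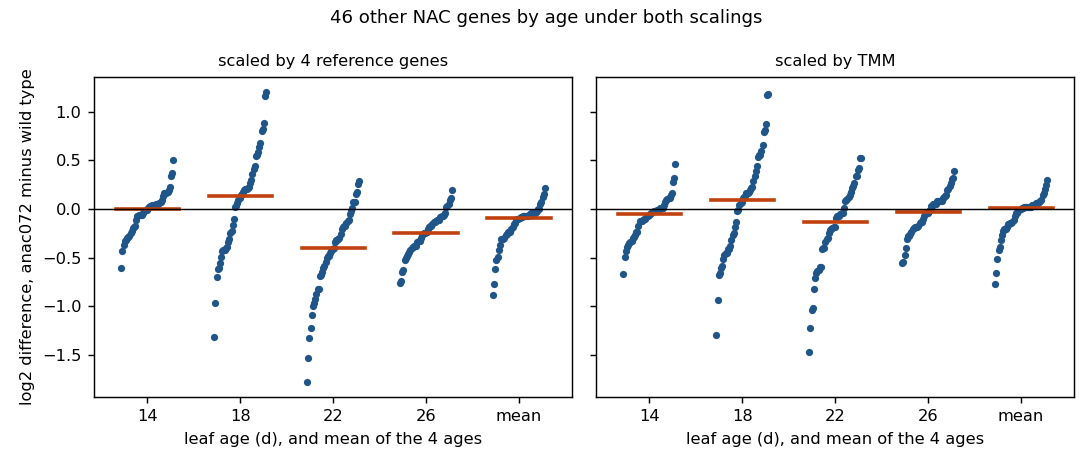
Log2 difference between anac072 and the wild type of letter A (vertical axis) for the 46 other NAC genes at each leaf age in days and as the mean of the 4 ages (horizontal axis), scaled by the 4 reference genes (left) or by TMM (right). Each point is a gene, ordered by value within its column, and lines are medians. The median at 22 d is -0.40 on the left and -0.13 on the right.

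Counts of genes whose groups did not overlap showed the same dependence. At 26 d both anac072 samples lay below both wild-type samples for 20 of the 46 genes and above for 1. Over the 17 lines with samples of letter A alone, which share these wild-type samples, the shares were 13.0% below and 17.6% above. Among these 17, anac072 had the most genes below. The anac092 line, with samples of letters A and B, was left out here and in the shares that follow. With TMM the numbers for anac072 became 7 below and 4 above. At 22 d, 13 of the 46 genes lay below and 2 above with the reference scaling, and 5 below and 8 above with TMM. Over the lines of letter A, 105 and 41 of the 782 pairs of line and gene lay below and above (13.4 and 5.24%). At 18 d, 10 of the 46 genes lay below and 13 above, where the lines of letter A had 102 and 202 of 782 pairs (13.0 and 25.8%). At 14 d, with 4 wild-type samples to pass, 1 gene lay below and 2 above, where the lines had 6.65 and 6.78%.

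The close relatives of ANAC072 did not pass the test in either direction. ANAC019 (AT1G52890) stood at 248 and 100.4 normalised counts in anac072 at 14 d and at 165, 149, 74.5 and 102 in wild type. At 18 d it was 328 and 337 against 191 and 186, both mutant samples above both wild-type samples. At 22 d it was 262 and 845 against 561 and 2254, and at 26 d 765 and 989.6 against 891 and 1453, with overlap at both ages. The differences by age were thus 0.51, 0.82, -1.32 and -0.42 on the log2 scale, with adjusted p-values of 0.999, 0.997, 0.9995 and 0.999. Their mean was -0.10 (SE 0.33, 95% interval -0.74 to 0.54, adjusted p = 0.992), which turned to 0.0056 with TMM and to 0.031 with DESeq2.

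ANAC055 (AT3G15500) stood at 24.5 and 37.6 normalised counts in anac072 at 14 d and at 43.8, 95.9, 26.8 and 23.7 in wild type. It was 216 and 121 against 220.2 and 272 at 18 d, the only age at which the groups did not overlap. It was 157 and 335 against 237 and 568 at 22 d, and 269 and 272 against 227 and 415 at 26 d. The log2 difference was below 0 at all 4 ages, at -0.61, -0.55, -0.68 and -0.24. Its mean was -0.52 (SE 0.36, 95% interval -1.23 to 0.19, adjusted p = 0.925). Against all wild type it was -0.37.

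Estimates lay below 0 at all 4 ages in 10 genes and above 0 at all 4 in 0 genes, but with TMM these counts were 4 and 2. The 5 lowest means among these were those of AT3G12910, ANAC087, ANAC084, ANAC055 and ANAC016, and none passed the test. Of these 5, ANAC084 did not keep one sign with TMM, where it was 0.051 at 26 d. ANAC016 (AT1G34180), a membrane-tethered regulator known to promote senescence, had the lowest unadjusted p. At 14 d it stood at 95.6 and 81.9 normalised counts in the mutant, beside 100.1, 83.3, 96.08 and 157 in wild type, and at 18 d at 191 and 88.5 against 204 and 222. It was 258 and 311 against 329 and 527 at 22 d, and 515 and 316 against 636 and 508 at 26 d. Both mutant samples were below every wild-type sample at 18 and 22 d. The mean log2 difference was -0.49 (SE 0.23, 95% interval -0.95 to -0.03, unadjusted p = 0.039, adjusted p = 0.73). Against all 34 wild-type samples it was -0.04, since ANAC016 was higher in the wild type of letter A than in all wild type, for instance 213 ± 13.1 (SD, n = 2) against 122 ± 61.8 (SD, n = 8) at 18 d.

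ANAC087 (AT5G18270), which acts in developmental cell death and senescence, was 31.3 and 26.3 normalised counts in anac072 and 34.8, 27.8, 25.8 and 51.5 in wild type at 14 d. At 18 d it was 63.8 and 52.7 against 46.2 and 131. At 22 d it was 152 and 447 against 191 and 1584, and at 26 d 321 and 738 against 913 and 739. The 2 wild-type samples at 22 d thus differed more from each other than the group means did. The mean log2 difference was -0.77 (SE 0.39, adjusted p = 0.75), and -0.21 without wild type A2 at 22 d. AT3G12910 had a mean of -0.88 (SE 0.50, adjusted p = 0.835) and ANAC084 one of -0.62 (SE 0.36, adjusted p = 0.835). With 1 sample left out, AT3G12910 ran from -1.58, without anac072 A1 at 18 d, to -0.32, without wild type A2 at 18 d. ANAC084 ran from -0.97, without anac072 A2 at 22 d, to -0.32, without wild type A2 at 18 d. Both genes were near background in some samples: AT3G12910 had 1 raw count in anac072 A2 at 18 d and 5 in A1 at 22 d, and ANAC084 had 2 and 5 in the anac072 samples at 18 d.

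**Figure D4:**
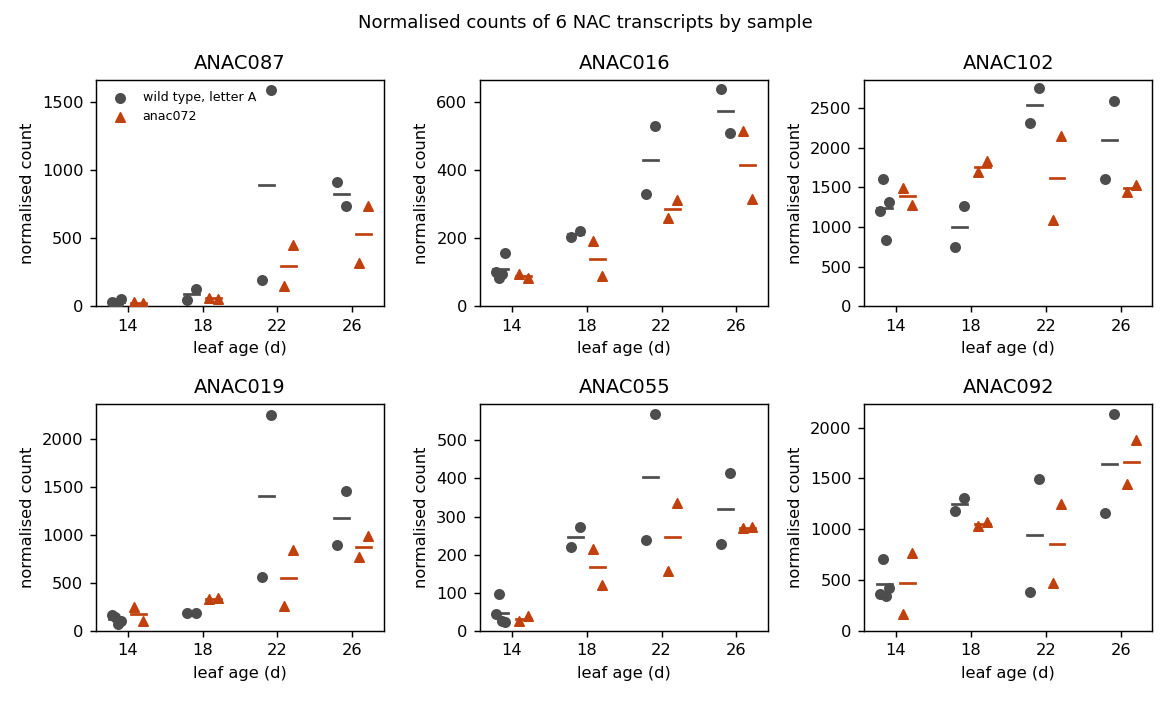
Normalised counts (vertical axes, linear from 0) of ANAC087, ANAC016, ANAC102, ANAC019, ANAC055 and ANAC092 by leaf age in days (horizontal axes). Circles are wild-type samples of letter A, triangles anac072 samples and short lines group means. The wild-type sample A2 at 22 d stands above A1 in every panel, for ANAC087 at 1584 against 191.

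No gene passed the edgeR test for a difference that changed with age, where 0.0443% of pairs over all lines did. ANAC102 had the lowest p (unadjusted p = 0.016, adjusted p = 0.795) and was the only gene with an unadjusted p below 0.05. ANAC102 (AT5G63790) belongs to the ATAF group of stress-responsive NAC factors. At 14 d its normalised count was 1490 and 1281 in the mutant, with 1200, 1602, 835 and 1311 in wild type. At 18 d it was 1686 and 1832 against 750.4 and 1258. At 22 d it was 1083 and 2139 against 2311 and 2753, and at 26 d 1440 and 1529 against 1608 and 2587. Both mutant samples were thus above the wild-type samples at 18 d and below them at 22 and 26 d. The next lowest p-values were those of ANAC057, ANAC101, ANAC019 and ANAC104, with adjusted p-values of 0.9996 each. For ANAC104, the log2 differences at 18 and 22 d were 0.55 and -0.88. ANAC057 had 1 to 12 raw counts in all samples of both groups at 18, 22 and 26 d, below the limit of 12.6, and ANAC101 had 4 to 18 at 18 and 22 d, so their differences at those ages compare values at or near background. ANAC101, also called VND6, is a switch for xylem vessels, and ANAC104, also called XND1, restrains xylem differentiation.

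Of the 12 panel genes known as promoters of senescence, besides ANAC072, 0 passed the test in either direction. As the mean of the 4 ages, their median log2 difference was -0.17, beside -0.10 for all 46 genes. All 12 estimates lay below 0, beside 39 of all 46. Only 8 did with TMM, where the median was -0.06, and 7 with DESeq2, beside 22 and 19 of the 46. ANAC092 (AT5G39610) had a mean difference of -0.08 (SE 0.33, 95% interval -0.72 to 0.56). It was 169 and 769 normalised counts in anac072 and 347 to 708 in wild type at 14 d, and 1448 and 1884 against 1156 and 2134 at 26 d. ANAC029 (AT1G69490) had a mean of -0.18 (SE 0.24, 95% interval -0.65 to 0.29), with 4122 and 6574 against 3872 and 8198 at 26 d. The groups overlapped for both genes at both of those ages. At 22 d, 11 of the 12 estimates lay below 0, beside 39 of all 46, and 9 did with TMM, beside 30. The median of the 12 was -0.54, beside -0.40 for all 46.

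For ANAC042 and ANAC083, which delay senescence, the mean differences were -0.29 (SE 0.32) and -0.07 (SE 0.10). The 95% interval for ANAC083 was -0.27 to 0.12. Of ANAC017, ANAC082 and ANAC090, a set that the study itself drew from these samples as restraining senescence, 0 passed the test. Their means were -0.08, -0.07 and -0.065. All 3 were above 0 with TMM and with DESeq2, beside 24 and 27 of all 46 genes. The relatives of ANAC092, namely ANAC059, ANAC079 and ANAC100, had means of -0.11, -0.37 and -0.30, also with 0 called.

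The 6 stress-responsive genes of the clade that holds ANAC072 were ANAC002 (ATAF1), ANAC019, ANAC032, ANAC055, ANAC081 (ATAF2) and ANAC102, and 0 of them passed the test at any age or as the mean. Their median log2 difference was 0.053 at 14 d, 0.51 at 18 d, -0.66 at 22 d and -0.34 at 26 d, beside 0.0015, 0.13, -0.40 and -0.24 for all 46 genes. At 18 d, 5 of the 6 lay above 0, beside 28 of all 46. At 22 d all 6 lay below, beside 39 of all 46. Both counts of the 6 were the same with TMM and with DESeq2, where 30 and 27 of the 46 lay below 0 at 22 d. The median of the 6 at 22 d was smaller there, at -0.40 and -0.35. At 26 d all 6 lay below 0, beside 40 of all 46. Only 5 of the 6 did with TMM, with a median of -0.12, and 3 with DESeq2, with a median of -0.06. Against all wild type, all 6 lay below 0 at 26 d, beside 44 of all 46, with medians of -0.65 and -0.25. All 6 did so at 22 d too, beside 28 of all 46, with medians of -0.31 and -0.08. Against the wild type of letter A, as the mean of the 4 ages, the median was -0.13, with 6 of 6 below 0, beside 39 of all 46. With TMM only 3 of 6 lay below 0, beside 22 of the 46, and the median of the 6 was -0.02.

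Of the 6 genes for membrane-tethered factors, 0 passed the test, with means from -0.49 for ANAC016 to 0.056 for ANAC014. Of ANAC018 and ANAC056, which act in the seed coat, 0 passed, with means of -0.10 and 0.001. The vascular genes stand for cells that a whole leaf also holds. Of the xylem genes, 4 of 5 could be tested and 0 passed. At 18 d all 4 lay above 0 under each scaling tried, beside 28 of all 46 genes with the reference scaling. Their median log2 difference was 0.72, beside 0.13 for all 46. Against all wild type 3 of the 4 lay above 0, beside 33 of the 46, and the median of the 4 was 0.35. At that age ANAC010 and ANAC076 had 7 to 10 raw counts, below the limit, and ANAC101 12 to 18. Summed over the 5 xylem genes, the level at 18 d was 350.0 to 371 normalised counts in anac072 and 223 to 259 in wild type. ANAC104 alone gave 231 and 247 of this in anac072 and 147 and 179 in wild type. The sum was 271 to 513 against 418 to 933 at 22 d, and at 26 d 428 to 541 against 565 to 673. At 14 d it was 323 to 372 against 303 to 322. ANAC104 alone gave 203 and 447 against 343 and 873 at 22 d, and 374 and 476 against 510 and 599 at 26 d. At both these ages 3 of the 4 tested xylem genes lay below 0 and 1 above, beside 39 and 40 of all 46 below. As the mean of the 4 ages, 3 of the 4 lay above 0 and 1 below. The part of vascular cells in the differences of other genes was not tested. The phloem genes summed to 60.8 to 71.1 in anac072 and 56.3 to 90.0 in wild type at 14 d and to 7.87 to 8.12 against 9.91 to 11.1 at 26 d, near background.

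The 2 samples of a group could differ widely from each other, most at 22 d. At that age, A2 stood above A1 for 37 of the 46 genes in wild type and for 35 in anac072, and 12 and 10 genes differed by more than 2-fold between the 2 samples. At 14 d only 1 and 2 genes did so between A1 and A2. The direction was not shared at every age: at 18 d, A2 stood above A1 for 34 of the 46 genes in wild type and for 16 in anac072.

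**Figure D5:**
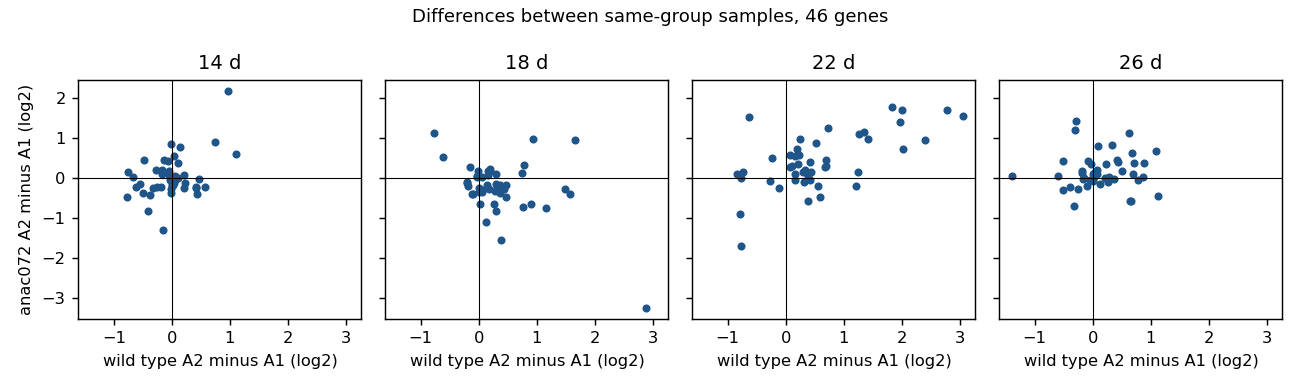
Log2 difference between samples A2 and A1 of the same group, in wild type (horizontal axis) and in anac072 (vertical axis), for the 46 other NAC genes at each leaf age. Each point is a gene. At 22 d most points lie right of and above 0, with 37 and 35 of the 46 genes. At 18 d, 34 genes lie right of 0 and 16 above it.

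The lines with insertions in the relatives were compared with anac072 directly, without wild type. In anac019, ANAC019 stood at 4.1 to 14.6 normalised counts in 7 of 8 samples and at 186 in A2 at 26 d. In anac055, ANAC055 stood at 0.456 to 5.92 in 7 of 8 samples and at 163 in the library labelled anac055 A1 at 18 d, which goes against its label. That library held 5.35 normalised counts of ANAC053, where anac055 A2 held 181, and the library labelled anac053 A1 at 18 d held 212 of ANAC053 and 3.86 of ANAC055. ANAC072 was not reduced beyond the test in either line, with mean log2 differences from wild type of -0.13 (SE 0.16, adjusted p = 0.992) in anac019 and -0.06 (SE 0.16, adjusted p = 0.992) in anac055. These comparisons share their wild-type samples with that of anac072. Directly, the log2 difference of ANAC072 was -1.97 (SE 0.16) between anac072 and anac019 and -2.05 (SE 0.16) between anac072 and anac055.

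Apart from the 2 targets, 0 of 45 genes (0.0%) passed the edgeR test between anac072 and anac019. ANAC100, a relative of ANAC092, had the lowest p, with a log2 difference of -0.62 (SE 0.20, adjusted p = 0.097), and was the 1 gene with an unadjusted p below 0.05. Its normalised counts averaged 61.5 in anac072 and 103 in anac019. The call depended on single choices: ANAC100 passed at an adjusted p of 0.037 without anac019 A1 at 26 d and at 0.022 in a fit of the letter A samples alone. DESeq2 and limma called 0 genes. Without anac019 A2 at 26 d, 0 genes were called.

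Between anac072 and anac055, 1 of 45 genes (2.22%) passed, ANAC056 (AT3G15510), which acts in the seed coat. ANAC056 averaged 1449 normalised counts in anac072 and 2376 in anac055, a log2 difference of -0.79 (SE 0.12, adjusted p = 1.1e-08). At 14 d it was 441 and 598 in anac072, 1175 and 1083 in anac055 and 426 to 623 in wild type. At 26 d it was 2161 and 1889 in anac072, 3261 and 3055 in anac055 and 1714 and 1826 in wild type. Both anac055 samples were thus above the anac072 and the wild-type samples at both ages, and likewise at 22 d. At 18 d the library labelled anac055 A1 stood at 1183 and A2 at 2198. Wild type stood at 1231 and 1499 at that age, so A1 lay below both, and anac072 at 1134 and 910. The mean difference from wild type was 0.001 (SE 0.11, adjusted p = 0.9995) in anac072 and 0.79 (SE 0.11) in anac055. In the RefSeq annotation, 1 other annotated gene stands between ANAC055 and ANAC056. Without the library labelled anac055 A1 at 18 d the direct difference was -0.88 (adjusted p = 4.6e-10). A second gene, ANAC046, reached an adjusted p of 0.078, with a log2 difference of -0.56 (SE 0.19). The calls against anac055 stayed the same under 19 alternatives, limma and TMM among them, so ANAC046 was not called there. They changed under 6, each time with ANAC046 added. ANAC046, which promotes chlorophyll breakdown, was called at an adjusted p of 0.014 with DESeq2 and at 0.037 without anac072 A1 at 18 d. It was also called at 0.035 without anac055 A2 at 14 d, and, at 0.042, together with ANAC053 when anac055 A2 at 18 d was left out, which leaves the library low in ANAC053 alone at that age.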

How the data were processed

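The authors deposited raw nCounter counts per probe (1 table per leaf age, 67 probes: 49 NAC genes, 4 references, 8 negative and 6 positive controls) and a table of log2 values. Per the labels' protocols, 100 ng of total leaf RNA entered each reaction. Set against the counts, the deposited log2 values equal log2 of the count less 1.16 to 10.6 counts per sample, divided by the mean of the 4 references up to a constant. They served as an alternative.

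The 53 gene probes were matched by locus to RefSeq (TAIR10.1), for names and neighbours only. Counts were fitted in edgeR 4.0.16 (R 4.3.3) by quasi-likelihood, the 434 samples together, each combination of genotype, letter and age having its own mean, and the reference mean as offset. The difference as the mean of 4 ages averages the within-age differences, and a 3-df F test asks whether they are equal. P-values of other genes were adjusted by Benjamini-Hochberg over 2256 pairs of line and gene, with a threshold of 0.05; those against anac019 and anac055 over 45 genes. Normalised counts are counts over the reference mean times 43036, and log2 levels per sample use a pseudocount of 1. Tests were also run on counts simulated from the fitted spread with independent samples. Such counts cannot show how the tests hold where samples deviate together.

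The members, gene lists and rule for named genes were chosen with earlier results of these data known. Named were ANAC072, ANAC019 and ANAC055; genes past a test; the 5 largest differences of one sign at all ages in each direction; the 5 lowest p-values for change with age; and list members. Alternatives were TMM, other reference means, DESeq2 1.42.0 (fitted per letter), limma 3.58.1 on the deposited log2 values, filters, wild-type choice, letter covariate, samples in the fit, replicate block, adjustment within the line, and each sample left out. Each age fitted separately, and TMM for the counts of genes whose groups do not overlap or that keep one sign, were added after seeing the data.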

Additional observations from a re-analysis of the deposited data

How the results depend on the processing

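The reduction of ANAC072 (mean of 4 ages) stayed past the test under every alternative run, from -1.97 with DESeq2 to -2.17 against all wild type, and from -2.21 to -1.96 when 1 sample was left out. Calls among the other 46 genes were 0 as the mean of the ages, at each age and for change with age under every alternative run, with 1 sample left out (0 to 0) and with each age fitted separately; DESeq2 gives no value for change with age. The mean of the other genes ran from -0.23 to -0.08 with 1 sample left out, never past the test. TMM moved the median of the 46 genes from -0.10 to 0.0091, and at 22 d from -0.40 to -0.13. With the replicate block, ANAC072 was at -2.11, the calls against wild type stayed at 0, and those against anac019 and anac055 became 1 and 2. Over the 46 genes, the differences between A2 and A1 in wild type and in anac072 correlated with r of 0.43, -0.47, 0.64 and 0.036 at the successive ages. Whether the numbers pair the samples is thus undecided, and they were not used as pairs in the results above. Letter A samples alone also gave 1 and 2 such calls, DESeq2 gave 2 against anac055, and leaving out 1 sample gave 0 to 1 and 1 to 3. The mean difference turned above 0 with TMM and DESeq2 for ANAC019 (0.0056 and 0.031), ANAC102 (0.061 and 0.092) and ANAC057 (0.023 and 0.033), and with DESeq2 for ANAC104 (0.0095). With 1 sample left out they ran from -0.38 to 0.23, -0.19 to 0.062, -0.22 to 0.099 and -0.31 to 0.069. None of these passed the test, and the cause was not tested. With 2 samples of the line per age, intervals at single ages had a median half-width of 0.65 to 0.83 log2, so precision differed between genes, with the narrowest at 0.26 to 0.31.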
